A study of Mus musculus with 4 samples.

Results

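The left edge of the Epha4 domain was followed through 4 capture Hi-C maps of distal limb buds from mouse embryos at E11.5. The edge was taken as the 28 bins of 10 kb between 75620001 and 75900000 on chromosome 1 (mm9), out of 1000 bins mapped between 71000001 and 81000000. It was chosen by position: it is the outermost 280 kb of the domain that the InvF inversion carries away. All pairs of bins with 1 bin in the edge and the other at least 20 kb away on every allele that holds both were used, which gave 27564 of 498497 pairs of the map. Capture Hi-C counts ligations between crosslinked genome segments, here after enrichment of the locus with custom probes.

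There were 3 homozygous mutants and wild type, with 1 library each. InvF carries an inversion from 74830001 to 75900000. DelB lacks 76390001 to 78060000. DelBs lacks 76390001 to 77860000 and so keeps a 200 kb segment, 77860001 to 78060000, that DelB has lost. WT embryos carried none of these rearrangements. The 2 deletions were located from the maps and the inversion was taken as 74830001 to 75900000. On the InvF allele the edge lies turned at 74830001 to 75110000, and the bin that is outermost next to the right flank in WT lies beside the left side of the map.

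Mammalian chromosomes fold into domains within which segments meet often, separated by boundaries that few contacts cross. The cohesin complex is thought to extrude loops of chromatin that stop at boundaries, many of which bind CTCF. Epha4 encodes an ephrin receptor tyrosine kinase that is expressed in the developing limb, and its domain holds distant limb enhancers. In the published description of these mutants, the inversion brings part of that domain to Wnt6, which encodes a secreted signal, and the deletions bring it towards Pax3, a transcription factor gene. Expression was not measured here, and positions of genes were not checked against an mm9 annotation. By RefSeq's genes of GRCm38, the anion exchanger gene Slc4a3 and Epha4 have 0 protein-coding genes between them, as have Epha4 and Pax3, while 31 lie between Wnt6 and Slc4a3.

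The libraries held 6073471 counts in InvF, 5543587 in DelB, 5832748 in DelBs and 5155274 in WT. They were brought to the WT level over pairs that no rearrangement touches, by factors of 1.24, 1.43 and 1.497 for InvF, DelB and DelBs. With 1 library per genotype the spread between embryos is unknown and no test is possible. The 95% intervals in parentheses are exact and cover counting error only. The edge held 189373 counts in InvF, 276076 in DelB, 268957 in DelBs and 216730 in WT. After scaling, this was 0.703 (0.698 to 0.707), 0.889 (0.884 to 0.894) and 0.829 (0.825 to 0.834) of the WT level in InvF, DelB and DelBs. The value of InvF was the lowest of the 3. The direction in both deletions depends on the scaling: with each library scaled to its total of all counts, an alternative chosen after seeing the data, the values were 0.742 in InvF, 1.18 in DelB and 1.10 in DelBs.

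Partners of the edge were grouped by place. The left side runs from 71000001 to 74830000 and is the side of Wnt6. The remainder of the inversion, 74830001 to 75610000, turns together with the edge in InvF. The right flank, 75900001 to 76390000, adjoins the edge in WT, DelB and DelBs. The Epha4 interval, 76390001 to 78060000, is the stretch lost in DelB, and the right side runs from 78060001 to 81000000. A single bin, 75610001 to 75620000, lies between the remainder and the edge.

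In WT the edge faced the Epha4 domain. The Epha4 interval took 39.7% of its contacts (39.5% to 39.9%), the right flank 22.5% (22.3% to 22.6%) and the edge itself 18.8% (18.6% to 19.0%). The remainder of the inversion, which begins 10 kb away across the WT boundary, took 7.89%, the left side 5.15% and the right side 5.35%. In the InvF library this makeup was turned round. The left side took 36.8% of the edge's contacts in InvF (36.6% to 37.0%), the edge itself 34.6%, the remainder of the inversion 17.2%, the Epha4 interval 5.33%, the right side 2.76% and the right flank 2.06%.

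**Figure D1:**
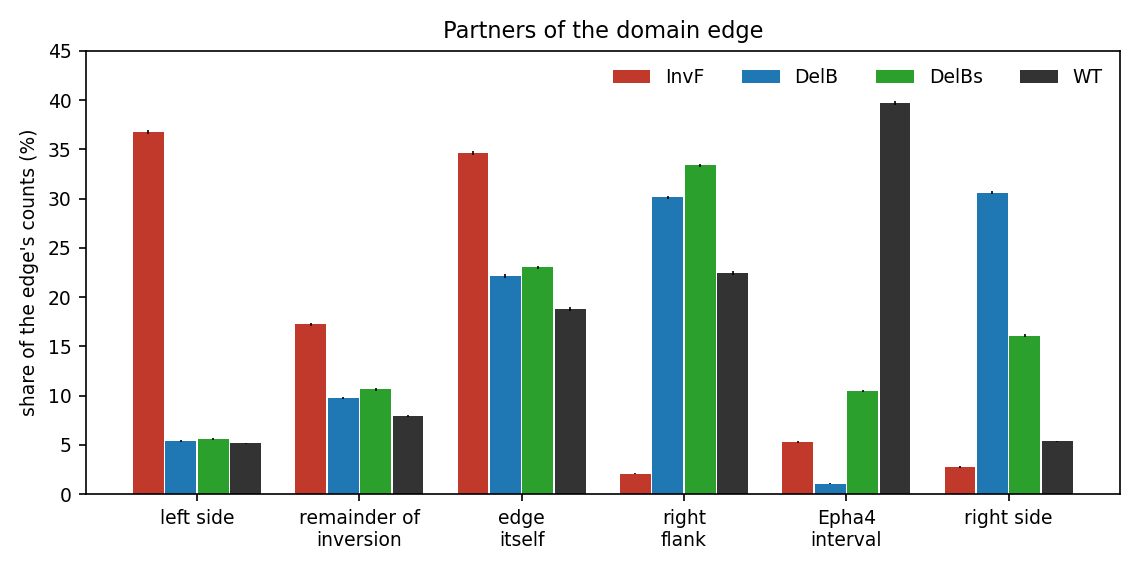
Share of the edge's counts (%, y axis from 0) with each group of partners (x axis) in InvF, DelB, DelBs and WT, 1 library each; error bars are exact binomial 95% intervals and cover counting error only. The left side takes 36.8% in InvF and 5.15% in WT, the Epha4 interval 5.33% in InvF and 39.7% in WT, and the right side 30.6% in DelB and 5.35% in WT.

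The contacts that InvF had more of were those with the left side. The edge had 69654 counts with it in InvF and 11152 in WT, which is 5.02 times the WT level after scaling (4.92 to 5.12). The gain lay close to the break. Partners within 500 kb of it had 51097 counts in InvF and 2277 in WT, a ratio of 18.0 (17.3 to 18.8). From 500 kb to 1 Mb there were 7271 counts in InvF and 2113 in WT, a ratio of 2.77 (2.64 to 2.91). Beyond 1 Mb the counts were 11286 in InvF and 6762 in WT, and the ratio was 1.34 (1.30 to 1.38). The same left-side partners stood at 0.937 (0.914 to 0.960) of the WT level in DelB and at 0.906 (0.884 to 0.928) in DelBs, where nothing on that side is moved. These 2 values turned to 1.25 in DelB and 1.198 in DelBs with the total of all counts as the scale.

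The contacts that InvF had fewer of were those with the old Epha4 side. The right flank, which adjoins the edge in WT, had 3907 counts in InvF and 48671 in WT, 0.0645 of the WT level (0.0625 to 0.0667). The Epha4 interval had 10091 counts in InvF and 86030 in WT, 0.0943 of the WT level (0.0924 to 0.0963). The right side beyond it had 5225 counts in InvF and 11593 in WT, 0.362 of the WT level (0.351 to 0.374). The shortfall in scaled counts was thus largest, as a ratio, for the nearest partners. This order turned when each distance on the allele was matched. The Epha4 interval then stood at 0.242 of WT and the right flank at 0.275. Among the 138 windows of 70 kb that could be ranked, the 3 next to the break, 75900001 to 76110000, together stood lowest, at 0.0565 (0.0540 to 0.0590), from 2086 counts in InvF and 29701 in WT. The windows 77510001 to 77580000 (0.0733, 0.0661 to 0.0811) and 76250001 to 76320000 (0.0742, 0.0668 to 0.0823) completed the lowest 5. The highest 5 touched each other, from 74500001 to 74850000. Summed, they were at 21.3 times WT (20.4 to 22.4), from 48370 counts in InvF and 1823 in WT.

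The inversion also alters distances: it puts the edge beside the left side and moves it away from the right flank. Counts were therefore also set against the average that the library itself showed at that allele distance, over pairs that lie on 1 side of every rearrangement, which could be had up to 3.33 Mb. On this scale, where 1 is the level expected at the distance, the left side stood at 0.927 in InvF (0.920 to 0.934) and at 0.518 in WT (0.507 to 0.529). Within 500 kb of the break the values were 1.18 in InvF (1.17 to 1.19) and 0.287 in WT (0.275 to 0.299). The right flank stood at 0.391 in InvF (0.379 to 0.404) and at 1.42 in WT (1.41 to 1.43). The Epha4 interval stood at 0.936 in InvF (0.918 to 0.955) and at 3.87 in WT (3.84 to 3.89). For their distance on the allele, the left-side partners within 500 kb of the break thus stood higher in InvF than in WT. From 500 kb to 1 Mb they stood at 0.494 in InvF (0.483 to 0.505) and at 0.481 in WT (0.460 to 0.502), with overlapping intervals, and beyond 1 Mb they stood lower in InvF, at 0.638 (0.626 to 0.650), against 0.934 in WT (0.907 to 0.962). Beyond 1 Mb an expected level could be had for 6146 pairs in InvF and for 3934 in WT, so these values cover unlike pairs. The old partners stood lower in InvF, although the distance is longer there. The expected level makes no correction for uneven coverage of the bins. With such a correction the WT value of the right flank dropped below 1, to 0.745, and with balanced values to 0.975.

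**Figure D2:**
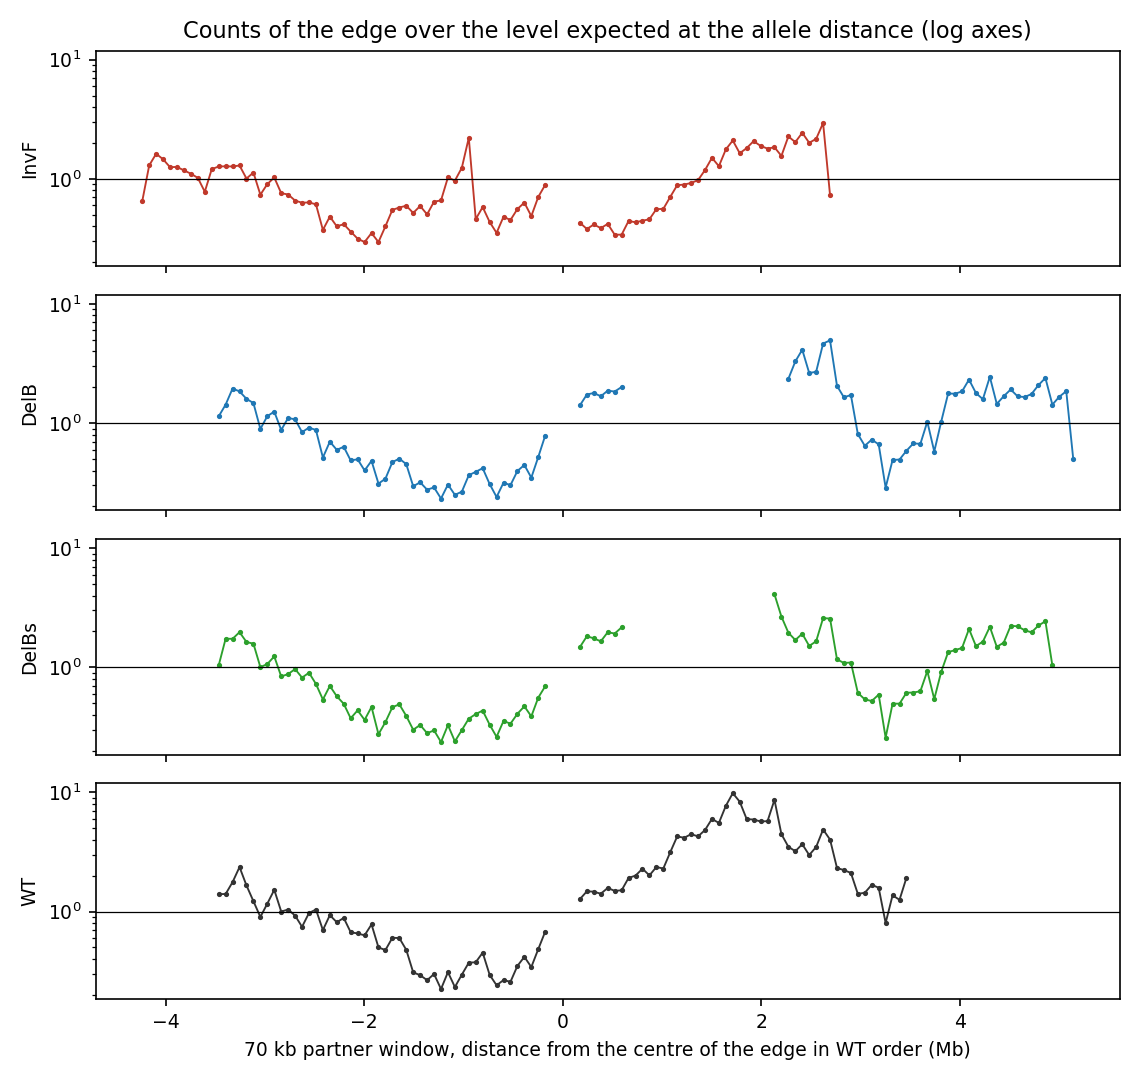
Counts of the edge over the level expected at the allele distance (log y axes, 1 marked by a line) for 70 kb partner windows, by distance from the centre of the edge in WT order (x axis, Mb), in InvF, DelB, DelBs and WT. In WT the values climb to 9.85 in the Epha4 interval; the same window stands at 2.10 in InvF, and the deleted windows are blank in DelB and DelBs. Windows partly beyond 3.33 Mb are drawn from the pairs within it.

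Within the Epha4 interval the value on the distance scale rose away from the edge in both libraries. The first 500 kb stood at 0.512 in InvF (0.494 to 0.531) and at 2.28 in WT (2.25 to 2.31). The second 500 kb stood at 1.08 in InvF (1.04 to 1.11) and at 4.79 in WT (4.73 to 4.84). The remaining 670 kb stood at 1.87 in InvF (1.81 to 1.93) and at 6.83 in WT (6.76 to 6.91). The order of the 3 stretches was thus the same on both alleles, at a lower level in InvF. Such a rise was not particular to the interval in WT. The WT left side went from 0.287 within 500 kb of the break to 0.481 and then 0.934 beyond 1 Mb. In InvF the left side went from 1.18 to 0.494 and then 0.638. In steps of 70 kb from the break, the InvF left side also rose farther out, though unevenly. It stood at 0.313 from 980 kb to 1050 kb, 0.622 from 1540 kb to 1610 kb and 1.30 from 2310 kb to 2380 kb. A rise was thus not particular to the interval in InvF either. The window from 77440001 to 77510000 was the highest in WT among the 82 windows at least 140 kb away whose pairs all lay within 3.33 Mb, at 9.85 (9.59 to 10.1, 5712 counts). It was the second highest of the 82 such windows in InvF, at 2.10 (1.93 to 2.28, 571 counts). The highest of them in InvF was 78000001 to 78070000, at 2.27 (2.04 to 2.52, 356 counts), against 3.50 in WT.

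The inversion keeps the distance of each edge bin to the break and exchanges what lies beyond it, so that new and old neighbours can be set side by side at equal distances. The left side in InvF was compared with the right flank in WT for this purpose. In the first 100 kb beyond the break the edge had 29008 counts with the new side in InvF and 17423 with the old side in WT, a scaled ratio of 1.34 (1.31 to 1.36). Over 250 kb the ratio was 1.03 (1.02 to 1.05), over 490 kb 0.839 (0.828 to 0.849), over 1 Mb 0.615 (0.609 to 0.622) and over 2 Mb 0.395 (0.391 to 0.398). The new neighbour was thus met more often than the old one next to the break, and less often farther out. Over 490 kb the direction depended on the scale: the ratio was 1.19 when the libraries were scaled to the edge's own total and 1.05 with balanced values.

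In steps of 70 kb the ratio of new to old side was 1.54 (1.51 to 1.57) in the first step and 0.687 (0.667 to 0.707) in the next. It was 0.739, 0.678 and 0.405 in the 3 steps after that. From 980 kb to 1050 kb the new side had 448 counts in InvF and the old side 4783 in WT, a ratio of 0.0753. At that step the new side was close to its own WT level, with a ratio of InvF to WT of 1.11, against 35.9 in the first step and 5.68 from 420 kb to 490 kb. Farther out the ratio of the new side to its own WT level stayed above 1 in each step up to 3290 kb, between 1.03 and 1.95. It was 1.46 from 1540 kb to 1610 kb and 1.92 in the step after that. In some of these steps the interval included 1, as from 2660 kb to 2730 kb (1.03, 0.820 to 1.29). From 3290 kb to 3360 kb the ratio was 0.670 (0.501 to 0.895), and in the last step, 3710 kb to 3780 kb, it was 1.42 (1.03 to 1.96). The old side in WT had 12800 counts in the first step, 3163 from 840 kb to 910 kb and 5712 from 1540 kb to 1610 kb, so it declined over the first part of the range and was higher again beyond it.

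**Figure D3:**
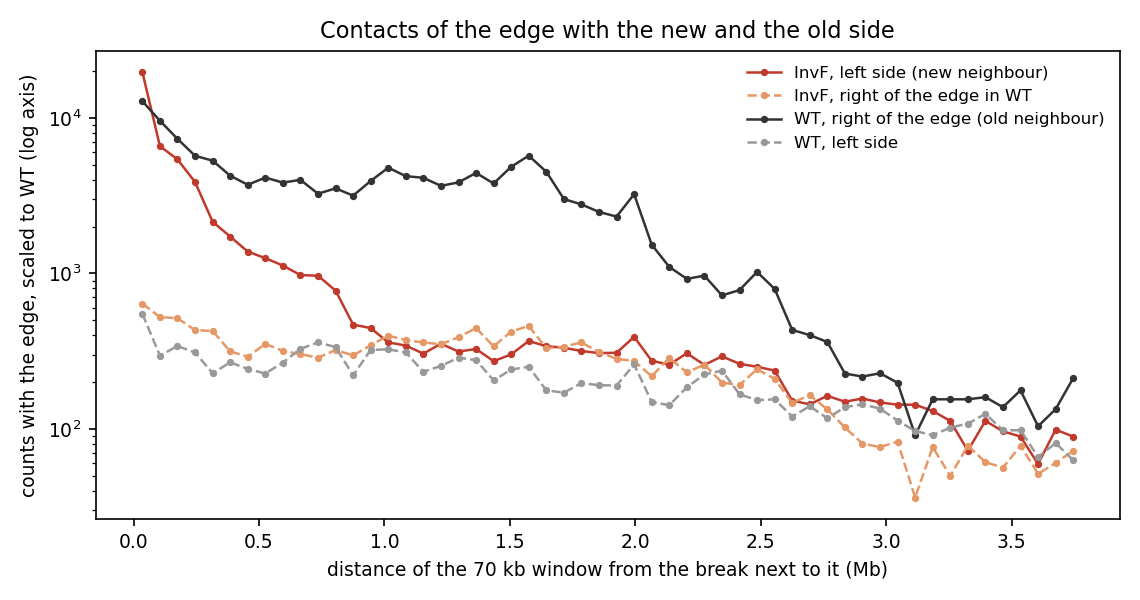
Counts of the edge, scaled to WT (log y axis), with 70 kb windows by their distance from the break next to them (x axis, Mb): the left side and the old right-hand side in InvF, and the right-hand side and the left side in WT. The InvF curve for the left side starts above the WT curve for the old neighbour, with a ratio of 1.54 in the first step. From 980 kb to 1050 kb it comes close to the level that the left side has in WT, with a ratio of 1.11. Beyond this it stays above that level up to 3290 kb, at ratios between 1.03 and 1.95.

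The remainder of the inversion is a control of another kind, because the inversion leaves its distance to the edge as it was. It lies across the WT boundary from the edge. The edge had 32656 counts with it in InvF and 17108 in WT, 1.53 times the WT level (1.51 to 1.56). DelB stood at 1.10 times WT (1.08 to 1.12) with 26970 counts, and DelBs at 1.12 times (1.10 to 1.14) with 28570. All 3 mutant libraries stood above WT, InvF by the most. On the distance scale the remainder stood at 0.645 in InvF (0.638 to 0.652), 0.459 in DelB, 0.466 in DelBs and 0.424 in WT (0.417 to 0.430). Contacts across the boundary stayed under the level for their distance in all 4 libraries.

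In 11 steps of 70 kb away from the boundary the InvF to WT ratio lay between 1.32 and 1.83 and was above 1 in each step. The ratios lay between 1.02 and 1.25 in DelB and between 1.01 and 1.39 in DelBs. All 3 mutants had their highest value in the same window, 75190001 to 75260000, with 1637 counts in InvF, 1291 in DelB, 1499 in DelBs and 720 in WT. There the ratios were 1.83 (1.67 to 2.00) in InvF, 1.25 (1.14 to 1.37) in DelB and 1.39 (1.27 to 1.52) in DelBs. The 3 ratios share the WT library.

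**Figure D4:**
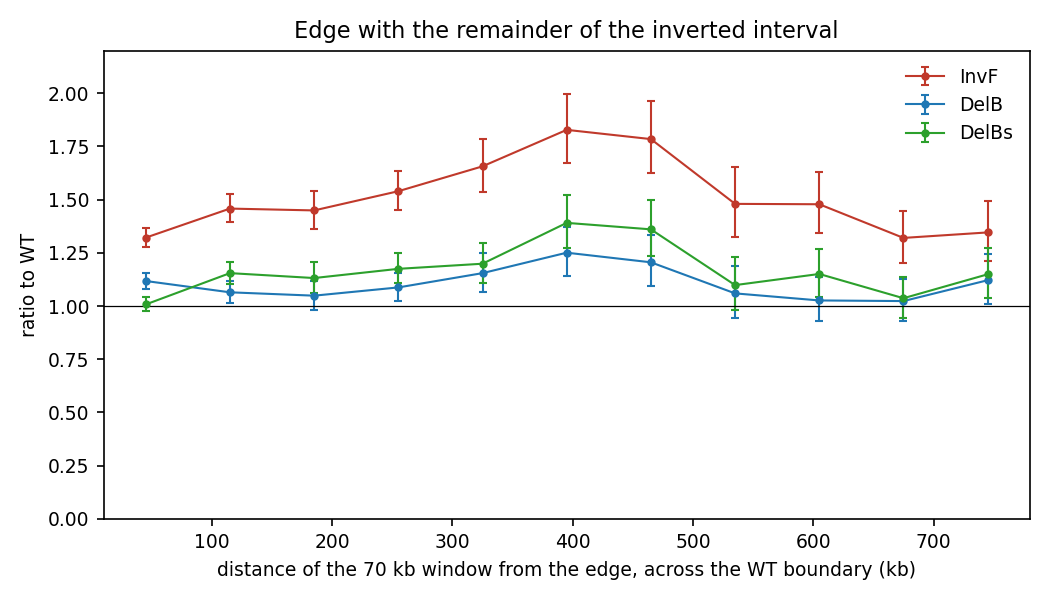
Ratio to WT (y axis, from 0) of the edge's counts with 70 kb windows of the remainder of the inversion, by distance from the edge across the WT boundary (x axis, kb), for InvF, DelB and DelBs; error bars are exact 95% counting intervals. InvF lies between 1.32 and 1.83, above both deletions in every window.

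Contacts of the edge with itself, whose distances no rearrangement alters, were also above WT in InvF. They numbered 65496 in InvF, 61124 in DelB, 61951 in DelBs and 40727 in WT. The ratios to WT were 1.29 (1.28 to 1.31) in InvF, 1.05 (1.03 to 1.06) in DelB and 1.02 (1.00 to 1.03) in DelBs. The single bin between the edge and the remainder had ratios of 1.30 (1.22 to 1.39), 1.17 (1.10 to 1.25) and 0.991 (0.927 to 1.06). In InvF the edge as a whole had fewer contacts than in WT, while those within it and across its own boundary were higher.

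The pattern was shared by all the bins of the edge. In InvF each of the 28 bins was above WT for the left side, the remainder of the inversion and the edge itself, and each was below WT for the right flank, the Epha4 interval and the right side. With 1 added to every count, the ratios for the left side had a median of 4.95 and lay between 3.75 and 8.11. For the right flank they had a median of 0.0571 and lay between 0.0367 and 0.267, and for the Epha4 interval the median was 0.0887 and the range 0.0474 to 0.403. Counts that neighbouring bins share with the same partners make them no independent repeats.

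The 4 parts of 70 kb differed in degree. The part next to the WT boundary, 75620001 to 75690000, had 21361 counts with the left side in InvF and 2960 in WT, a ratio of 5.80 (5.58 to 6.03), and the part next to it had 4.20 (4.03 to 4.38). The other parts stood at 4.89 and 5.12. The part at the boundary is the farthest of the 4 from the left side on the InvF allele. On the distance scale it nevertheless stood highest for the left side in InvF, at 1.504 (1.48 to 1.52), against 0.828, 0.982 and 0.623 in the parts that follow in WT order. The values of the 4 parts in WT were 0.502, 0.473, 0.599 and 0.504. For the Epha4 interval in WT the same part was also the highest of the 4, at 5.18 (5.11 to 5.24), against 3.13, 4.23 and 3.15.

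**Figure D5:**
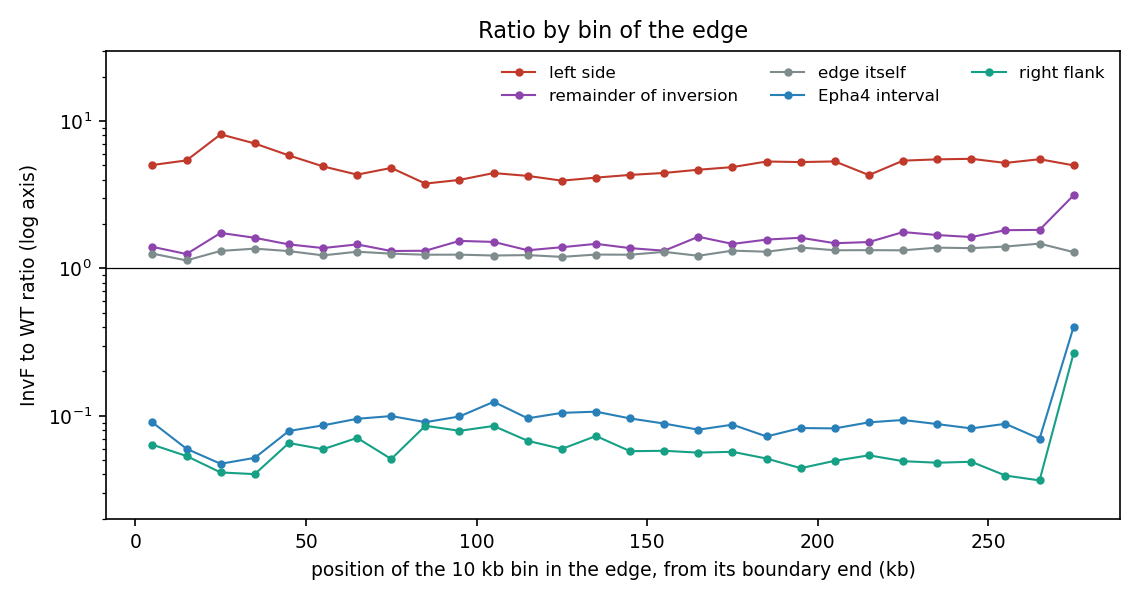
InvF to WT ratio of scaled counts (log y axis, 1 marked by a line) for each 10 kb bin of the edge, by position from its boundary end (x axis, kb), with 5 groups of partners. The left side, the remainder and the edge itself lie above 1 in all 28 bins, the Epha4 interval and the right flank below 1, and the last bin stands apart from the rest.

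The bin 75640001 to 75650000 stood out, and was singled out after the values were seen. It gave the highest share to the Epha4 interval in WT, 43.6% of its own counts, and the highest share to the left side in InvF, 40.6%. It had 3992 counts with the left side in InvF and 395 in WT, a ratio of 8.13 (7.33 to 9.03), the highest of the 28 bins. With the Epha4 interval it had 269 counts in InvF and 4577 in WT, a ratio of 0.0473 (0.0416 to 0.0535), the lowest of the 28. In the deletions it was again the bin with the highest ratio for the right side, at 8.79 (7.92 to 9.77) in DelB and 3.83 (3.44 to 4.28) in DelBs. The bin after it, 75650001 to 75660000, had the second highest level for the Epha4 interval over distance in WT, at 6.41 beside 6.68.

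The strongest partner of this bin at least 500 kb away on the allele differed between the libraries. In WT it was 77500001 to 77510000 in the Epha4 interval, with 98 counts, against 3 in InvF, 4 in DelB and 2 in DelBs. The WT counts were 40.3 times the level for the distance. In DelB it was 78410001 to 78420000 on the right side, with 194 counts in DelB, 67 in DelBs and 12 in WT. In DelBs it was 77890001 to 77900000 in the kept segment, with 259 counts in DelBs and 57 in WT. In InvF it was the first bin of the inverted interval, 74830001 to 74840000, with 68 counts against 7 in WT. This partner lies at a break, and its distance of 810 kb holds only if it carries no left-side sequence, which was not tested. The next partner in InvF, 74570001 to 74580000 on the left side at 510 kb, had 53 counts in InvF and 0 in WT. A count of 0 does not show that the contact is absent in WT. The strongest WT partner is deleted in DelB and DelBs, and that of DelBs is deleted in DelB. DelB and DelBs could therefore not share the WT partner, nor DelB that of DelBs, and these differences follow in part from the alleles. The strongest partners of DelB and InvF are deleted on none of the alleles. Why they differed between the libraries was not tested.

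Both bins at the breaks behaved unlike their neighbours in InvF. The last bin of the edge, 75890001 to 75900000, had 763 counts with the right flank in InvF and 2296 in WT, a ratio of 0.267 (0.246 to 0.290), while the bin before it had 0.0365 (0.0303 to 0.0435). For the Epha4 interval the last bin had 1472 counts in InvF and 2937 in WT, a ratio of 0.403 (0.378 to 0.429), against 0.0699 in the bin before. Its ratio for the remainder of the inversion was 3.14 (2.82 to 3.50), against 1.83 in the bin before. The first bin of the inverted interval, 74830001 to 74840000, had 2007 counts with the edge in InvF and 100 in WT, a ratio of 16.1 (13.2 to 19.9). The bins after it had 2.07 (1.56 to 2.78) and 1.38 (1.06 to 1.80). A bin of 10 kb that holds a break carries sequence from both sides of it, and where the breaks lie within these bins was not tested. Without the 2 bins on each side of each break the ratios of InvF to WT were 4.31 for the left side, 1.43 for the remainder, 0.0585 for the right flank and 0.0840 for the Epha4 interval. The new to old neighbour ratio was then 1.69 (1.64 to 1.75) in the first 70 kb, 0.972 (0.955 to 0.988) over 250 kb and 0.775 (0.764 to 0.786) over 490 kb.

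The deletions leave the edge in place and ask what it meets when the Epha4 interval is gone. In DelB the right side took 30.6% of its contacts (30.4% to 30.8%) and the right flank 30.1%, and in DelBs the right flank took 33.4%, the right side 16.1% and the Epha4 interval, all but a residue of it in the kept segment, 10.5%. With the right side the edge had 84494 counts in DelB and 11593 in WT, 5.08 times the WT level (4.99 to 5.18). It had 43252 counts with the right side in DelBs, 2.49 times the WT level (2.44 to 2.54). With the right flank, whose distance is unaltered, the ratios were 1.19 (1.18 to 1.21) in DelB and 1.23 (1.22 to 1.25) in DelBs. Counts assigned to deleted bins were 2888 in DelB, 0.0234 of the WT level, and 1537 in DelBs, 0.0128 of the WT level, and what they come from was not tested.

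The pairs with the right side were also closer together in the deletions. The median allele distance of these pairs was 2100 kb in DelB, 2300 kb in DelBs and 3770 kb in WT. On the distance scale, over the pairs within 3.33 Mb, the right side reached 2.21 in DelB (2.19 to 2.22), 1.35 in DelBs (1.33 to 1.36) and 2.75 in WT (2.69 to 2.81). With each distance matched in this way over the pairs that both libraries could give, the ratio to WT turned below 1, to 0.931 in DelB and 0.518 in DelBs. With an expected level taken from all pairs of a library, DelB stood above WT instead, at 2.32 against 1.58. That level can reach beyond 3.33 Mb, whereas the same-side level covered 7574 of the 8232 pairs in DelB and 2898 in WT. The 2 scales may thus also differ in the pairs they cover. In the first 500 kb of the right side the edge had 61720 counts in DelB and 26958 in DelBs, 2.39 times as many in DelB after scaling (2.36 to 2.43), while the median allele distances were 880 kb in DelB and 1080 kb in DelBs. On the distance scale these partners stood at 3.46 in DelB (3.43 to 3.48), 1.85 in DelBs (1.83 to 1.87) and 3.49 in WT (3.40 to 3.58). The kept segment had 26637 counts with the edge in DelBs and 5723 in WT, a ratio of 3.11 (3.02 to 3.20), and stood at 3.04 over distance in DelBs against 5.79 in WT.

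The highest windows of DelB lay at 78350001 to 78490000, at 8.05 times WT (7.68 to 8.45), and at 78070001 to 78280000, at 7.77 times (7.47 to 8.09). In DelBs they lay at 77930001 to 78210000, at 3.29 times WT (3.19 to 3.40), and at 78420001 to 78490000, at 3.60 times (3.34 to 3.89). The lowest windows of both deletions were on the left side and between 0.587 and 0.708 of WT, from 70 to 893 counts in WT. The window 78420001 to 78490000 was the highest in DelB on the distance scale too, at 4.95, against 2.56 in DelBs and 4.01 in WT.

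Measured on the allele, the counts of the edge lay at shorter distances in every mutant library. In DelB and DelBs pairs with deleted bins drop out and the right side lies closer. Shorter distances there thus follow in part from the allele itself. The median allele distance of its counts was 220 kb in InvF, 400 kb in DelB, 360 kb in DelBs and 680 kb in WT. Contacts within 500 kb made up 72.8% of the counts in InvF, 56.1% in DelB, 59.8% in DelBs and 44.6% in WT. Within 1 Mb lay 83.0% in InvF, 81.2% in DelB, 82.2% in DelBs and 59.2% in WT.

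In blocks of 70 kb by 70 kb with at least 50 counts in 1 of the 2 libraries compared, a block was called when it differed from WT by over 1 log2 unit. In InvF 61 of the 398 blocks of the edge were higher, beside 4.78% of the 5738 blocks of the whole map, and 178 were lower, beside 6.08%. All 92 blocks that lay wholly with the Epha4 interval were lower, as were all 28 with the right flank. With the right side 54 of 59 were lower, while 55 of 157 with the left side were higher. A block could pass the minimum through the library in which it was higher, so shares by partner group partly follow from that minimum. With a minimum of 20 counts 64 blocks were higher and 231 lower in InvF. In DelB 119 of 399 blocks were higher, beside 10% of the 4644 blocks of the map, and 0 were lower, beside 0.0431%. All 119 paired the edge with the right side, where 160 were compared. In DelBs 88 of 395 blocks were higher, beside 7.89% of 4814, and 0 were lower, beside 0.0415%. Of these 75 lay with the right side, where 151 were compared. The shares of edge blocks, 15.3% higher and 44.7% lower in InvF, 29.8% higher in DelB and 22.3% higher in DelBs, were above those of the map. With each distance matched, 0 blocks of the edge were higher in either deletion. The median block of the edge was 0.12 log2 units above WT in InvF, 0.26 in DelB and 0.34 in DelBs, against -0.0049, 0.10 and 0.11 over the map. Where both windows lay on the same side of all rearrangements, InvF had 0 called blocks of 2268, DelB 0 of 2307 and DelBs 0 of 2305.

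The authors' deposited difference maps score pairs of bins in a mutant against WT. Most pairs were at 0 or had no score, and these were not told apart. For the edge, the authors' deposited table of InvF held 631 pairs above 0 and 3083 below 0, beside 3797 and 4291 over the whole map. The edge makes up 27564 of the 498497 pairs at least 20 kb apart, while the whole-map numbers also include nearer pairs. Of those above 0, 472 lay with the left side, 136 within the edge and 23 with the remainder of the inversion. Those below 0 included 2076 pairs with the Epha4 interval and 984 with the right flank. In the authors' deposited table of DelB 991 pairs were above 0, 975 of them with the right side, and 13 were below 0. Over the whole map of DelB 2821 were above 0 and 256 below. The authors' deposited table of DelBs held 960 pairs above 0, of which 585 lay with the right side and 357 with the Epha4 interval, and 17 below 0. The whole map of DelBs held 2784 above 0 and 284 below.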

How the data were processed

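Capture Hi-C maps of 4 genotypes, with 1 library each, were used. Per the labels' protocols, dissociated limb cells were crosslinked, and the locus was enriched with probes before sequencing. The submitters' processing notes name Bowtie2 2.2.6 and mm9. The authors deposited raw maps with counts per pair of 10 kb bins (mapping quality 30, per the file names). The deposited balanced maps hold a signal made by the authors with KR balancing, per the file names. The deposited difference maps hold scores of pairs, whose making is not given in the sources used. Whether duplicate pairs were removed is not given either, so intervals cover counting error only.

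Deletions were located as runs of bins under 10% of the WT level. Scaling used the counts of pairs 20 kb to 2 Mb apart on 1 side of, and outside, every rearrangement. Intervals are exact at the 95% level: conditional binomial for ratios, Poisson for observed over expected. The expected level needed at least 50 same-side pairs at a distance. Blocks had a pseudocount of 1. The limits of the inversion and of the partner groups were given with the region. The members, partner groups and named windows were chosen with earlier results of these data known. The windows named are the 5 highest and 5 lowest 70 kb windows by ratio to WT, merged where they touch, and those highest over distance at least 140 kb away. Block calls, ratios and the location of deletions were tested on simulated data. Calculations used numpy 2.4.6 and scipy 1.17.1 under Python 3.11.15, and plots matplotlib 3.10.9. No sequence was read, because no mm9 genome was used here.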

Additional observations from a re-analysis of the deposited data

How the results depend on the processing

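With 1 library per genotype, differences between embryos cannot be told apart from differences between genotypes, and counts under about 50 in a window or block limit what could be compared. No paired analysis was possible because each genotype has 1 library. No value has a test, so an alternative was set against the counting interval of the value in the report: of 150 alternatives over 33 values, 42 stayed within it (for counts of blocks, within 1.5 times), 97 moved beyond it without turning and 11 turned the direction. The cause of these moves was not tested. The InvF to WT ratios for the left side, the remainder and the edge itself stayed above 1, and those for the right flank, the Epha4 interval and the right side below 1, in every alternative run.

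Scaled to the total of all counts, the InvF to WT ratios were 5.30 (left side), 1.62 (remainder), 0.0681 (right flank), 0.0996 (Epha4 interval), 0.383 (right side) and 1.37 (edge itself). The right side was at 6.78 in DelB and 3.30 in DelBs, the remainder at 1.47 and 1.48, the new to old ratio at 0.885, and 141 blocks were higher in DelBs. Scaled to the edge's own total, the same values were 7.15, 2.18, 0.0919, 0.134, 0.516 and 1.84 in InvF, 5.72 and 3.01 for the right side, 1.24 and 1.35 for the remainder and 1.19 for new to old, which turned its direction, and 140 blocks were higher in InvF. With the total of all counts, chosen for these values after seeing the data, all contacts of the edge were at 0.742 in InvF and turned to 1.18 in DelB and 1.10 in DelBs, and the left side turned to 1.25 in DelB and 1.198 in DelBs.

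With each distance matched, the InvF ratios were 1.78 (left side), 0.275 (right flank), 0.242 (Epha4 interval), 0.629 (right side, over the pairs within 3.33 Mb) and 1.31 (edge itself). The right side turned to 0.931 in DelB and 0.518 in DelBs. Blocks higher were then 28 in InvF, 0 in DelB and 0 in DelBs, and blocks lower were 11 in DelB and 39 in DelBs. With balanced values the InvF ratios were 5.37, 1.68, 0.0707, 0.105, 0.401 and 1.49 in the order above, the right side was at 4.63 in DelB and 2.55 in DelBs, the remainder at 1.19 in DelBs, and new to old turned to 1.05. Over the first 250 kb in place of 490 kb, new to old turned to 1.03. A minimum distance of 40 kb gave 1.33 for the edge itself.

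Without the bins at the breaks the InvF ratios were 4.31, 1.43, 0.0585 and 0.0840 for the left side, remainder, right flank and Epha4 interval, and new to old was 0.775. Observed over expected in InvF, an alternative chosen after seeing the data, was then 0.863, 0.593, 0.318 and 0.819.

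Observed over expected changed with the expected level, while InvF stayed above WT for the left side and the remainder, each taken as a whole, and below it for the right flank and the Epha4 interval. From all pairs of a library, it was 0.850 in InvF and 0.471 in WT (left side), 0.607 and 0.398 (remainder), 0.356 and 1.35 (right flank), 0.797 and 3.34 (Epha4 interval), and 2.32 in DelB, 1.49 in DelBs and 1.58 in WT (right side). With the coverage of the bins it was 0.654 in InvF and 0.349 in WT, 0.416 and 0.273, 0.203 and 0.745, 0.504 and 2.13, and 1.71, 1.04 and 1.87 in the same order. With balanced values it was 0.781 in InvF and 0.390 in WT, 0.543 and 0.326, 0.288 and 0.975, 0.692 and 2.67, and 1.69, 1.14 and 2.14. The WT right flank thus turned from above to below 1 under the last 2.

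Blocks of 20 kb gave 275 higher and 1240 lower in InvF, 405 higher in DelB and 412 higher in DelBs, and blocks of 140 kb gave 15, 61, 32 and 17. At 1.5 log2 units 40 blocks were higher in InvF, 65 in DelB and 38 in DelBs. With a minimum of 20 counts, 231 blocks were lower in InvF, 1 in DelB and 1 in DelBs.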
